A study of Mus musculus with 15 samples.

Results

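Interferon-induced and histocompatibility genes were followed through the lumbar dorsal root ganglia (DRG) of miR-183 cluster knockout and control mice. The set holds 47 mouse genes, listed by symbol, of 39179 gene identifiers in the count table. All 47 symbols matched an identifier, and all 47 had at least 10 counts in at least 3 of the 15 libraries. By role they comprise 10 transcription factors and regulators, 4 sensors of foreign nucleic acid, 18 antiviral effectors, 3 class I molecules, 6 genes of class I peptide processing and 6 class II genes. The first 3 classes together are 32 interferon-induced genes, and the last 3 are 15 histocompatibility genes.

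Each library was made from polyadenylated RNA of the lumbar 4 to 6 ganglia of 1 mouse of 3 to 6 months, on a mixed background that is mostly C57bl6. Knockout mice (Wnt1-Cre; mirflox/flox) lose the floxed miR-183 cluster in cells of the neural crest lineage, which gives rise to the sensory neurons and glia of the ganglion but not to its blood-derived macrophages. Control mice carried Wnt1-Cre, except naive replicate 7 and SNI replicates 18 and 23, which were wild type (wt). The groups were naive knockout (n = 4), naive control (n = 5), knockout after spared nerve injury (SNI, n = 3) and control after SNI (n = 3). Wild-type mice were a larger share of injured than of naive controls, so contrasts that use the controls are not balanced for Cre, least so after SNI. The part of Cre in them was not tested. In SNI the tibial and common peroneal branches of the sciatic nerve are tied and cut while the sural branch is spared. The time between injury and collection is not given in the sources used here.

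Interferons are secreted by cells that detect viral nucleic acid or, for the gamma type, by T and NK cells. Type I receptors signal through Jak kinases to transcription factors that bind the interferon-stimulated response element (ISRE), and the gamma receptor signals to factors that bind the gamma-activated site (GAS). The induced genes include the sensors that start the response, effectors that block viral replication, and most steps by which class I molecules show peptides to T cells. Class II genes are under the transactivator Ciita and are mainly expressed by macrophages, dendritic cells and B cells. In bulk ganglia, fewer cells of a type and less RNA per cell cannot be told apart.

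The libraries held 5.25 to 10.8 M counts, so 3 counts, the level that a count of 0 still allows by counting error, are 0.273 to 0.647 CPM, the count scaled to the size of the library. The targeted microRNA genes are too short for this assay, with 0 counts for Mir183, 1 for Mir96 and 2 for Mir182 over the 15 libraries, and could not serve as a check of the genotype labels. The 10 sensory neuron markers summed to 10089 to 12202 CPM. Control SNI replicate 23 stood apart, with 5.25 M counts and a mitochondrial share of 7.43%, against 2.26 to 3.6% in the other 14 libraries. Animal numbers of the injured knockouts, the injured controls and the naive mice do not interleave, so injury, and genotype after injury, cannot be told apart from that order.

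The proximal promoters carry the letters that interferon signalling is known to read. RefSeq promoters (250 bases before to 50 after the start, build GRCm38.p6) were present for 33 of the 47 genes. The long ISRE, which reads GAAA, any pair of bases and then GAAACT, was found on either strand in 10 of the 33 (30.3%), against 0.303% of 27025 genes with a promoter. The shorter core, which ends with GAAA in place of GAAACT and is part of every long ISRE, was found in 15 (45.5%, against 3.99%). The GAS letters TTCNNNGAA were found in 8 (24.2%, against 9.55%). By class, the long ISRE was in 9 of 13 effectors and 1 of 2 sensors, and in none of the 8 regulators, 3 class I molecules, 4 class I processing and 3 class II genes with a promoter.

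The promoters below are examples from the set. They are the effector Ifit1, which varied widely between animals and has the long ISRE in tandem, the guanylate-binding protein gene Gbp2, the ubiquitin-like modifier gene Isg15, which has 3 core matches that overlap, and Ifi35, the regulator that differed between genotypes. Capitals mark the long ISRE in Ifit1 and Gbp2 (there on the opposite strand), the core in Isg15 and the GAS letters in Ifi35.
Ifit1 (chr19:34640639-34640938, plus strand): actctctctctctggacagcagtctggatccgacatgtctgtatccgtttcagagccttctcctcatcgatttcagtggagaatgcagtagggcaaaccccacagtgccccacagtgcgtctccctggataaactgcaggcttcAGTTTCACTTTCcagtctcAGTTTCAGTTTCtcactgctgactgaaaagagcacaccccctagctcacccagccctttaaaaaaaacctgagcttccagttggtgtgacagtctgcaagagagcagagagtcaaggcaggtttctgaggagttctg
Gbp2 (chr3:142620413-142620712, plus strand): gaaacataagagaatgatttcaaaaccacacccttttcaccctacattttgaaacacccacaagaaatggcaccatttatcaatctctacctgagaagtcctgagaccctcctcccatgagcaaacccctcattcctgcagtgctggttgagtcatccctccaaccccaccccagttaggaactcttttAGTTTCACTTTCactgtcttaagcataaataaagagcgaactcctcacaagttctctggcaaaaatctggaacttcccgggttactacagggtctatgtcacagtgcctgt
Isg15 (chr4:156200769-156201068, minus strand): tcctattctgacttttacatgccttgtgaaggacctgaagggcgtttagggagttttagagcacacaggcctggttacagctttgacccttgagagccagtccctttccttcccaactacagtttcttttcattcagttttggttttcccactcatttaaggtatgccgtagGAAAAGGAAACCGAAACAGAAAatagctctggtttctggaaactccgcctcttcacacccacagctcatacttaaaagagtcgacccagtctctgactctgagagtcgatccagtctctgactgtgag
Ifi35 (chr11:101448162-101448461, plus strand): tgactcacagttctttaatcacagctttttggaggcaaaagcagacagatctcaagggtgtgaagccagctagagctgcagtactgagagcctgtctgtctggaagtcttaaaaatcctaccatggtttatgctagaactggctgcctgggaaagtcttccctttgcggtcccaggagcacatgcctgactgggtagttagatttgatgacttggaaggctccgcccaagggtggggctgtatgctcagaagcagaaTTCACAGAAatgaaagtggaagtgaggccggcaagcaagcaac
The first long ISRE of Ifit1 lies 106 bases before the start and that of Gbp2 61 bases before it. The GAS letters of Ifi35 lie just after the start. The matches are descriptions of these letters and say nothing about binding in the ganglion.

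The deleted microRNAs pair with messages mainly through bases 2 to 8, the seed, shown in capitals in the RefSeq mature sequences.
miR-183-5p: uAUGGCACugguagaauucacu
miR-96-5p: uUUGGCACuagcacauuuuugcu
miR-182-5p: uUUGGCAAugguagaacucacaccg
An 8-base site, the complement of the seed followed by A, lay in the 3′ UTR of 2 of the 47 genes (4.26%), against 10.2% of 14466 tested genes with an annotated 3′ UTR. The median 3′ UTR was shorter in the set, at 736 bases against 1360, so the shares are not compared at like length. Both sites are for miR-182-5p, and the site is in capitals within its flanks.
Ifit1: aaaagtctTTGCCAAAgaaggtat
Mx1: gcagaagcTTGCCAAAttctccga
Neither gene was called between knockout and control. In naive animals the log2 fold change was -0.15 (SE 0.528) for Ifit1 and 0.33 (SE 0.516) for Mx1, a myxovirus resistance GTPase.

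The genes of the set spanned a wide range of levels. Per kilobase of exon, over all 15 libraries, B2m, the light chain of class I molecules, was highest at 302 CPM per kb. The small mitochondrial and nuclear envelope protein gene Ifi27 followed at 119, the membrane antiviral gene Ifitm3 at 55.6, the class II invariant chain gene Cd74 at 53.9 and the class I heavy chain gene H2-D1 at 32.5 CPM per kb. The interferons themselves were close to absent: 16 type I, II and III interferon genes matched an identifier and held 8 counts in all 15 libraries together, so none could be tested. Their receptors were present, with Ifnar1 at 48.3 to 79.5 CPM, Ifnar2 at 11.2 to 16.4, Ifngr1 at 26.9 to 40.6 and Ifngr2 at 54.0 to 67.3 CPM. Picked after its values were seen, Ifnar1 had 48.3 to 57.8 CPM in naive knockouts and 65.8 to 71.6 in naive controls. These groups did not overlap, as for 9.63% of all genes, but the gene was not called (edgeR, log2 -0.35, adjusted p = 0.0778). After SNI the genotypes overlapped (log2 -0.12, adjusted p = 0.552).

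**Figure D1:**
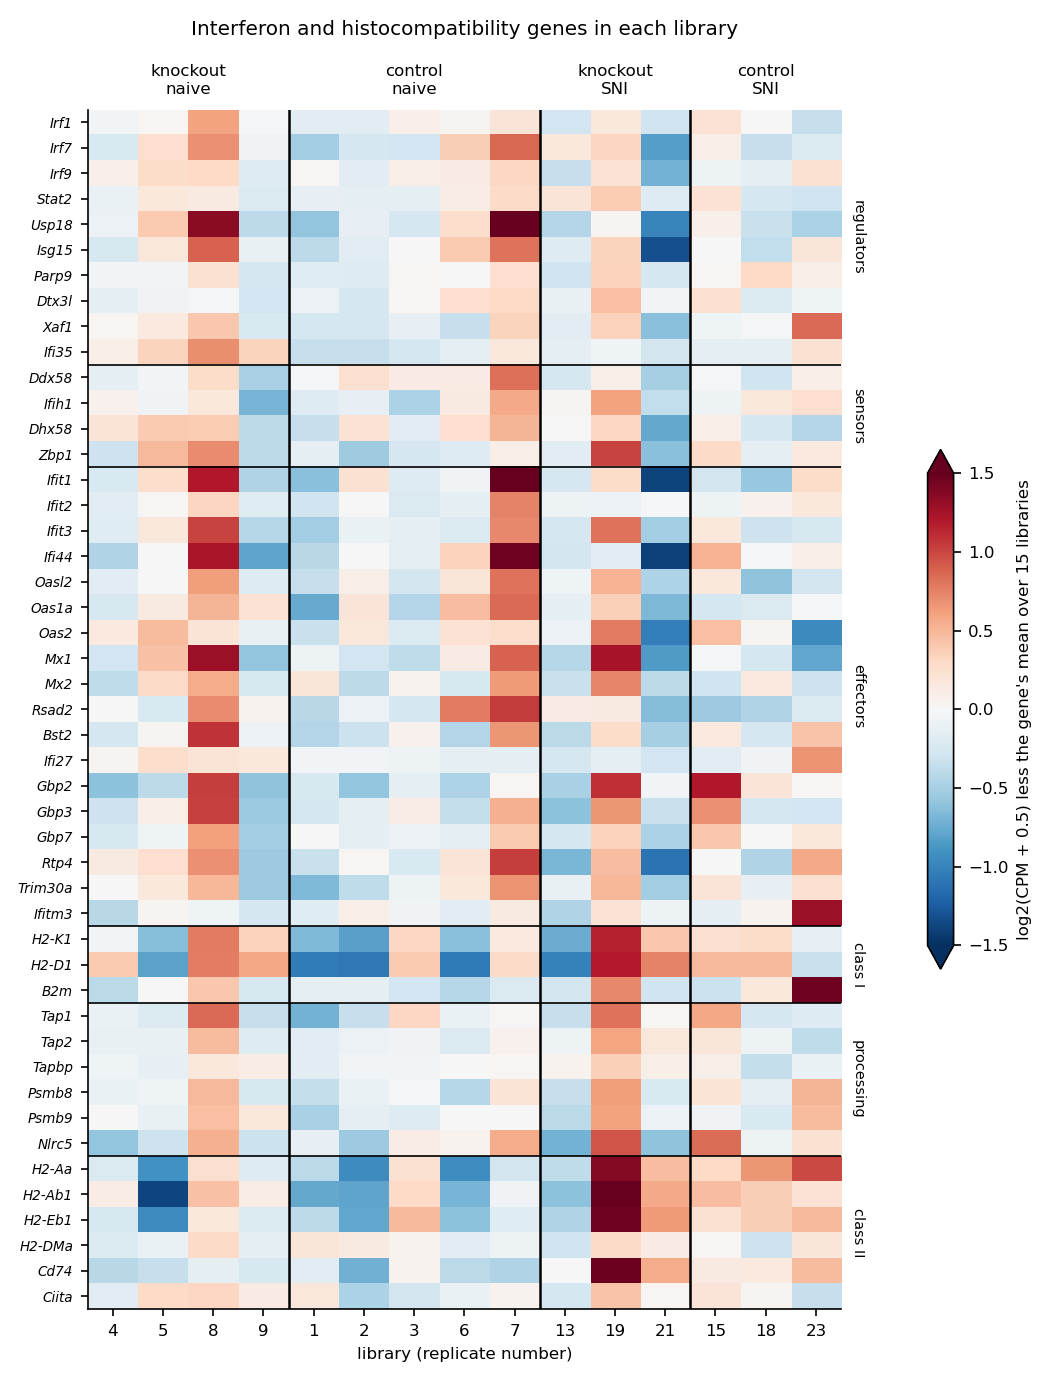
Level of each of the 47 genes (rows, by class) in each of the 15 libraries (columns, by group and replicate number), as log2(CPM + 0.5) less the gene's mean over the libraries. Columns of knockout naive replicate 8, control naive replicate 7 and knockout SNI replicate 19 are red in most rows, while no whole group is.

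Few of the genes were called between genotypes or with injury, and the share called lay near or below that of all 16976 genes tested. Calls are genes whose p in edgeR's quasi-likelihood test, adjusted after Benjamini and Hochberg, is under 0.05. In naive animals 1 of the 47, Ifi35, was called for knockout against control, higher (2.13%, against 1.89% of all genes called and 0.889% called higher). It was also the 1 gene with an unadjusted p under 0.05, against 11.7% of all genes, and the median log2 fold change was 0.07, against 0.00 over all genes. After SNI none was called for knockout against control, where 1.04% of all genes were. At an unadjusted p under 0.05 there were 2 (Ifi27 and Tapbp), or 4.26%, against 22.7% of all genes. The median was 0.04, against -0.01.

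For injury against naive, 2 of the 47 genes were called in knockout animals, Cd74 higher and Ifi35 lower (4.26%, against 10.1% of all genes, of which 7.17% were higher and 2.94% lower), with a median log2 fold change of -0.06, against -0.02. In control animals none was called, against 2.48% of all genes. At an unadjusted p under 0.05 there were 4 (H2-Aa, B2m and Cd74 higher, Rsad2 lower), against 15.7%, and the median was 0.08, against 0.02. These medians pool classes of unlike sign. Of the 15 histocompatibility genes 13 were above 0 with injury in each genotype (median 0.22 in knockouts, 0.35 in controls). Of the 32 interferon-induced genes 6 were above 0 in knockouts and 12 in controls (median -0.17 and -0.08). Of all genes 47.6% and 53.6% were above 0. Genes of the set vary together, so these are not separate events. The injury effect in knockout less that in control was called for none of the 47 and for 0% of all genes. At an unadjusted p under 0.05 there were 2, Ifi35 and Ifi27, against 13.4% of all genes. DESeq2 called Ifi35 in naive animals and H2-Eb1 beside Cd74 and Ifi35 for injury in knockouts, and limma-voom made the same calls as edgeR. Neither called any of the 47 for knockout against control after SNI, for injury in controls or for the difference of the injury effects, although 8 of them have no adjusted p in DESeq2 for knockout against control after SNI. The comparisons that share a group of animals are not independent of each other.

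**Figure D2:**
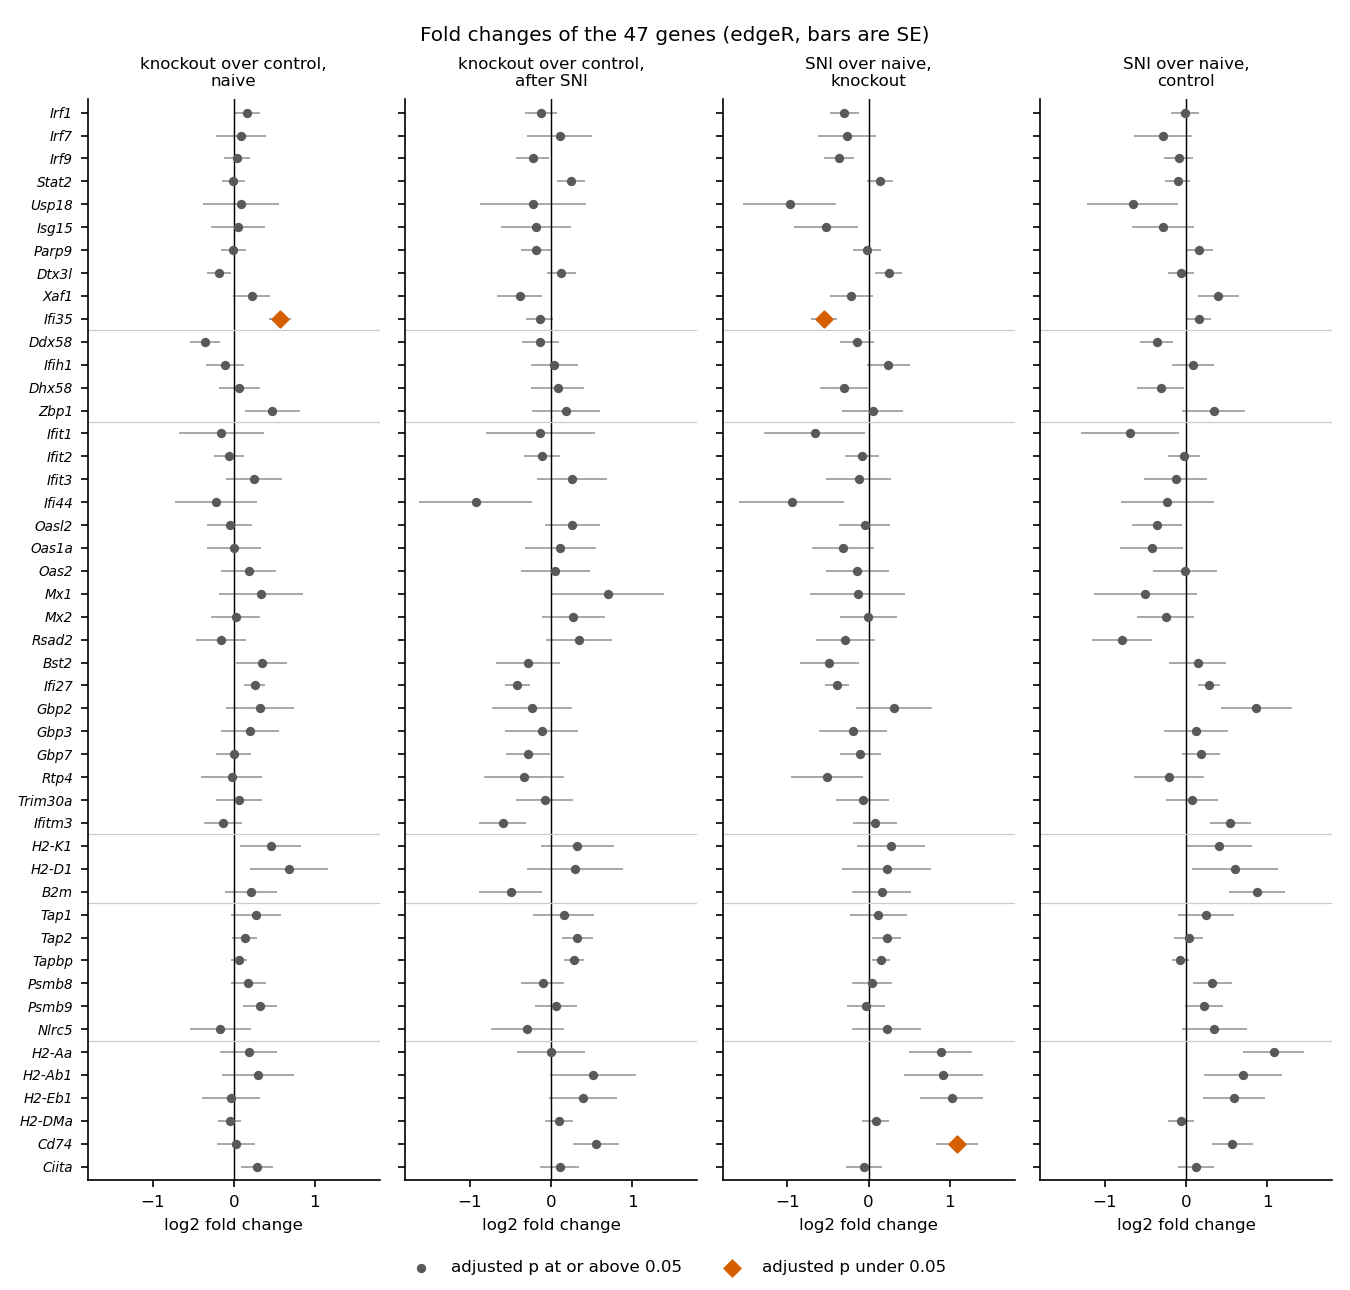
Log2 fold change of each of the 47 genes (rows, by class from regulators at the top to class II at the bottom) in the 4 comparisons (panels), with SE bars, and orange diamonds for an adjusted p under 0.05. Ifi35 is marked for knockout over control in naive animals and, with Cd74, for SNI over naive in knockouts.

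Among the 10 transcription factors and regulators, Ifi35, a leucine zipper protein that binds Nmi (chr11:101448407-101458698, GRCm38, plus strand), was called. In naive animals it had 25.2, 29.7, 38.4 and 29.8 CPM in knockouts, against 18.3, 18.4, 19.4, 21.1 and 26.5 CPM in controls. The lowest knockout lay below the wild-type control, replicate 7, and above the 4 Wnt1-Cre controls, so the groups overlapped by 1 library. The mean was 30.8 ± 5.51 CPM in knockouts and 20.7 ± 3.41 in controls (SD, n = 4 and 5; log2 fold change 0.57, SE 0.134, adjusted p = 0.0365). After SNI it had 21.2, 22.4 and 19.4 CPM in knockouts, against 21.4, 21.4 and 27.6 CPM in controls (log2 -0.14, SE 0.169, adjusted p = 0.636). Injured knockouts thus lay below every naive knockout, and the fall was called (log2 -0.55, SE 0.156, adjusted p = 0.0347), while in controls the value for injury was 0.16 (SE 0.151, adjusted p = 0.639). The test of the difference of the injury effects gave -0.71 (SE 0.216, adjusted p = 0.365).

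Both calls of Ifi35 were near the threshold. Leaving out 1 library at a time, the naive call was lost in 7 of 15 omissions (knockout replicates 5, 8 and 9, and control replicates 1, 2, 3 and 6), with the log2 fold change at 0.45 to 0.67 and the adjusted p as high as 0.165, on omission of knockout naive replicate 8. The injury call was lost in 6 (any injured knockout, and naive knockouts 5, 8 and 9), at -0.63 to -0.42 and an adjusted p as high as 0.135, on omission of knockout SNI replicate 21. The antisense gene Gm11626 (chr11:101456576-101457390, minus strand) lies inside Ifi35, and the strand setting of the counting is not given in the sources used here, so reads of the pair may not be separated. Gm11626 had 9.32 to 11.5 CPM in naive knockouts and 6.26 to 10.5 in naive controls (log2 0.41, adjusted p = 0.258). In injured knockouts it had 6.30 to 7.48 CPM, against the 9.32 to 11.5 of naive knockouts (log2 -0.56, SE 0.178, adjusted p = 0.0549), beside the -0.55 of Ifi35. Vat1, a vesicle protein gene of the opposite strand, ends 47 bases beyond Ifi35. It had 323 to 414 CPM in naive knockouts and 182 to 215 in naive controls (log2 0.89, SE 0.0952, adjusted p = 6.29e-05), with no 8-base site of the cluster. In injured knockouts Vat1 had 476 to 501 CPM, against 192 to 266 in injured controls, whereas Ifi35 had 19.4 to 22.4 CPM in injured knockouts and 21.4 to 27.6 in injured controls. The part of reads from Gm11626 or Vat1 in the Ifi35 counts was not tested.

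**Figure D3:**
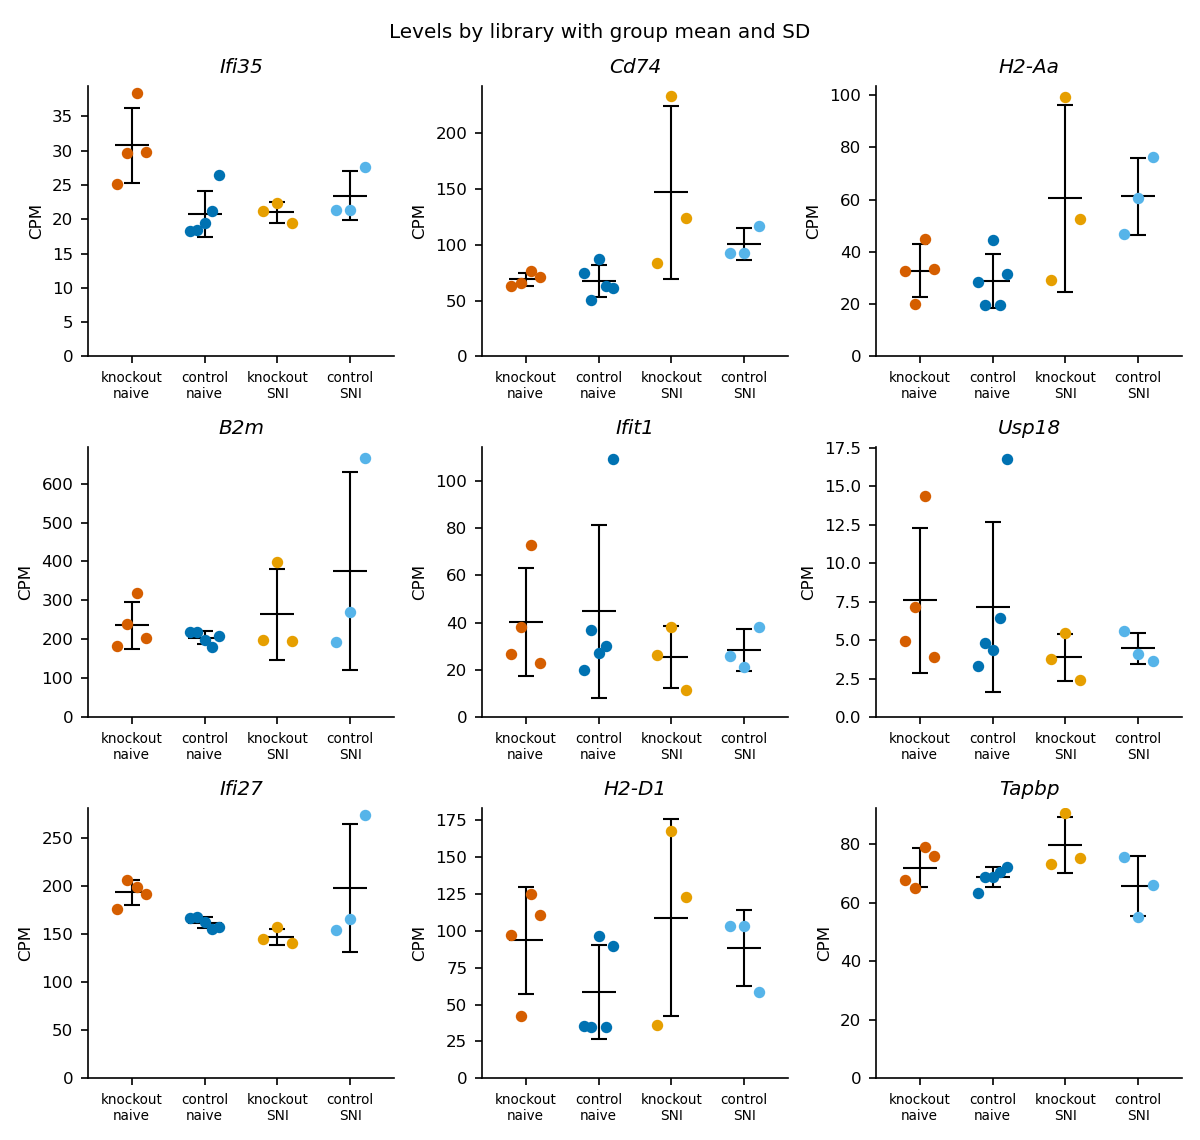
Levels (CPM) of 9 genes in every library, with the group mean and SD in black, for knockout and control animals, naive and after SNI. Ifi35 is higher in naive knockouts and Cd74, with a wide spread, in injured knockouts, and Ifit1 and Usp18 have 1 high animal in each naive group.

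The other 9 regulators were not called in the fit reported. They include Irf1, Irf7 and Irf9 and Stat2, transcription factors of the response, the ubiquitin-like modifier Isg15 and the protease Usp18 that removes it, the partners Parp9 and Dtx3l, and Xaf1, a promoter of cell death. Their log2 fold changes for knockout against control ran from -0.19 (Dtx3l) to 0.22 (Xaf1) in naive animals and from -0.39 (Xaf1) to 0.24 (Stat2) after SNI. For injury in knockouts 2 of the 10 regulators had a fold change above 0 and 8 below it, where 47.6% of all genes were above 0, with Usp18 at -0.97 (SE 0.577, adjusted p = 0.293) and Isg15 at -0.52 (SE 0.392, adjusted p = 0.407). In controls Usp18 was at -0.66 (SE 0.56) and Isg15 at -0.28 (SE 0.381). Irf9 lay at -0.36 for injury in knockouts (SE 0.185, adjusted p = 0.217). It was called lower there by limma-voom with quality weights (log2 -0.48, adjusted p = 0.0447) and by edgeR without knockout SNI replicate 19 (log2 -0.66, adjusted p = 0.0476). The regulators vary together between animals, so their signs are not separate events.

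None of the 4 sensors was called in any comparison. Ddx58 encodes RIG-I, the helicase that detects viral RNA ends, and was the most abundant per kilobase. In naive animals it had 30.9, 33.1, 41.2 and 24 CPM in knockouts, against 33.3, 40.1, 36.9, 37.0 and 60.4 CPM in controls (log2 -0.36, SE 0.184, adjusted p = 0.493). After SNI it had 28.2, 36.1 and 23.9 CPM in knockouts, against 33.6, 27.6 and 36.5 CPM in controls. The groups overlapped in each comparison, and without control naive replicate 7 the naive log2 fold change was -0.18. Zbp1, a sensor of Z-form nucleic acid, had the highest naive value of the class, 0.48 (SE 0.343, adjusted p = 0.696). Ifih1 (MDA5) and Dhx58 (LGP2), the other helicases, lay at -0.11 and 0.07.

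Of the 18 effectors none was called in any comparison in the fit reported. They comprise Ifit1, Ifit2 and Ifit3, which bind foreign RNA, Oas1a, Oas2 and Oasl2 of the oligoadenylate synthetase family, the GTPases Mx1, Mx2, Gbp2, Gbp3 and Gbp7, the radical enzyme Rsad2 (viperin), the tether Bst2 and Ifi27, Ifi44, Rtp4, Trim30a and Ifitm3. Their median log2 fold change was 0.01 for knockout against control in naive animals, -0.12 after SNI, -0.14 for injury in knockouts and -0.08 for injury in controls. For injury in knockouts 2 of the 18 were above 0 and 16 below, where 47.6% of all genes were above 0. In controls 7 were above and 11 below, where 53.6% of all genes were above 0. The effectors vary together between animals, so these signs are not separate events. Of the 32 interferon-induced genes 27 were highest in replicate 8 among naive knockouts, and 26 were lowest in replicate 21 among injured knockouts. Ifi44, an interferon-induced cytoplasmic protein gene, did not overlap between the groups after SNI, at 1.90, 2.08 and 0.60 CPM in knockouts, against 3.65, 2.37 and 2.59 CPM in controls (log2 -0.93, SE 0.7, adjusted p = 0.436). It was the 1 gene of 47 without overlap in that comparison (2.13%, against 16.2% of all genes).

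Ifi27 was the effector with the smallest p. In naive animals it had 177, 207, 199 and 192 CPM in knockouts, against 167, 167, 163, 156 and 157 CPM in controls, with no overlap (log2 0.26, SE 0.126, adjusted p = 0.455). It was the 1 gene of 47 without overlap there (2.13%, against 9.63% of all genes). After SNI it had 144, 157 and 141 CPM in knockouts, against 154, 166 and 274 CPM in controls (log2 -0.42, SE 0.155, adjusted p = 0.147), and the injured knockouts lay below every naive knockout (log2 -0.39, SE 0.146, adjusted p = 0.0974). The highest library was control SNI replicate 23. Without it the gene was called higher in naive knockouts (log2 0.25, adjusted p = 0.0242) and lower with injury in knockouts (log2 -0.37, adjusted p = 0.00119), although neither contrast uses that library, which enters the shared estimate of the spread. With all libraries, limma-voom with quality weights also called Ifi27 in naive animals (log2 0.26, adjusted p = 0.0249) and for injury in knockouts (log2 -0.40, adjusted p = 0.00133). So did edgeR with only the 2 groups compared (adjusted p = 0.0154 and 0.00342). The difference of the injury effects was -0.68 with all libraries (SE 0.2, adjusted p = 0.365), -0.36 without control SNI replicate 23 (adjusted p = 0.549), and called at -0.83 without replicate 15 (adjusted p = 0.0348). Without replicate 15, Ifi27 was also called lower in knockouts after SNI (log2 -0.57, adjusted p = 0.0155) and higher with injury in controls (log2 0.43, adjusted p = 0.0491). In the same omission Ifitm3 was called lower in knockouts after SNI (log2 -0.85, adjusted p = 0.0457).

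The 3 class I molecules were not called in any comparison with all libraries in the fit. B2m had 182.9, 240.2, 320 and 204 CPM in naive knockouts, against 218, 220, 198, 180 and 208 CPM in naive controls (log2 0.21, SE 0.321, adjusted p = 0.903). After SNI it had 199.7, 399.7 and 195 CPM in knockouts, against 193, 269 and 667 CPM in controls (log2 -0.50, SE 0.393, adjusted p = 0.46). The means after SNI turned on knockout replicate 19 and control replicate 23. For injury in controls the log2 fold change of 0.87 (SE 0.345, adjusted p = 0.242) was 0.18 without control SNI replicate 23, and 1.19 and called without replicate 15 (adjusted p = 0.0483). It was -0.06 without the wild-type controls, which leaves replicate 15 as the only injured control.

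Of the 6 processing genes none was called. They supply peptides to class I molecules: Tap1 and Tap2 are the peptide pump, Tapbp (tapasin) loads the peptide, Psmb8 and Psmb9 are immunoproteasome subunits, and Nlrc5 is the class I transactivator. Tapbp, the most abundant, had 67.8, 64.9, 79.2 and 76.2 CPM in naive knockouts, against 63.2, 68.8, 68.8, 70.6 and 72.1 CPM in naive controls (log2 0.07, SE 0.0978, adjusted p = 0.896). After SNI it had 73.3, 90.6 and 75.2 CPM in knockouts, against 75.5, 55.03 and 66.3 CPM in controls (log2 0.28, SE 0.12, adjusted p = 0.181). The groups overlapped, and without control SNI replicate 15 the value was 0.40 and was called (adjusted p = 0.0281). The other 5 genes lay between -0.29 (Nlrc5) and 0.32 (Tap2) for that comparison.

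The highest fold change with injury in each genotype was that of a class II gene, and Cd74 was the 1 of the 6 called. Cd74 is the invariant chain that escorts class II molecules (chr18:60803848-60812652, GRCm38, plus strand). Injured knockouts had 83.8, 233 and 124 CPM, against 62.8, 65.7, 76.5 and 70.9 CPM in naive knockouts, with no overlap. The log2 fold change was 1.09 (SE 0.262, adjusted p = 0.0186), with means of 147 ± 77.4 and 69 ± 6.02 CPM (SD, n = 3 and 4). Injured controls had 92.3, 93.0 and 117 CPM, against 74.9, 50.5, 87.2, 63.3 and 61.3 CPM in naive controls, also with no overlap, but the log2 fold change of 0.57 was not called (SE 0.252, adjusted p = 0.29). The difference of the injury effects was 0.52 (SE 0.367, adjusted p = 0.507). Without knockout SNI replicate 19 the value in knockouts was 0.59 (adjusted p = 0.104), and with only the injured and naive knockouts in the fit it was 1.11 (adjusted p = 0.083).

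The class II chains H2-Aa, H2-Ab1 and H2-Eb1 lay close to Cd74 in size but were not called. For injury in knockouts their log2 fold changes were 0.89 (SE 0.389, adjusted p = 0.163), 0.92 (SE 0.489, adjusted p = 0.243) and 1.02 (SE 0.391, adjusted p = 0.112). H2-Eb1 was called by DESeq2 (adjusted p = 0.0376) and without knockout SNI replicate 13 (log2 1.38, adjusted p = 0.0239). For injury in controls they were 1.08 (SE 0.372, adjusted p = 0.183), 0.70 (SE 0.48, adjusted p = 0.503) and 0.59 (SE 0.378, adjusted p = 0.468). H2-Aa had 29.2, 99.4 and 52.7 CPM in injured knockouts and 46.9, 60.7 and 76.4 CPM in injured controls. It had 32.6, 20.03, 45.0 and 33.3 CPM in naive knockouts and 28.6, 19.5, 44.5, 19.7 and 31.5 CPM in naive controls, so that the injured controls lay above all naive controls. The correlation with H2-D1, as measured below, was 0.93 for H2-Ab1, 0.87 for H2-Eb1 and 0.79 for H2-Aa. The level of H2-D1 fell into separate ranges that cut across the groups. In its lower range were 3 of 5 naive and 1 of 3 injured controls, and 1 of 4 naive and 1 of 3 injured knockouts. The injury contrasts of these chains in controls were thus not balanced for the ranges. H2-DMa, which edits the class II peptide, lay at 0.09 in knockouts and -0.06 in controls, and the transactivator gene Ciita at -0.06 and 0.12.

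Without overlap between injured and naive libraries were 3 of the 47 genes in knockouts, Cd74 higher and Ifi35 and Ifi27 lower (6.38%, against 34.2% of all genes), and 2 in controls, Cd74 and H2-Aa, both higher (4.26%, against 8.21%). The sum of 15 macrophage markers was 342 to 407 CPM in injured knockouts, against 204 to 304 in naive knockouts, and 262 to 421 CPM in injured controls, against 176 to 221 in naive controls. With injury 6 of the 15 markers rose in knockouts and 7 in controls, and none fell. Of all genes 7.17% rose in knockouts, and 2.48% were called in either direction in controls. None of the 15 was called between genotypes, where 1.89% of all genes were in naive animals and 1.04% after SNI. Dendritic cell markers, 8 genes of which 6 were tested, summed to 51.3 to 63.8 CPM in injured knockouts and 48.5 to 51.5 in naive knockouts. They summed to 43.6 to 58.4 CPM in injured controls and 46.3 to 54.4 in naive controls. With injury 2 of them rose in knockouts and 0 in controls. T and NK cell markers, 13 genes, summed to 4.57 to 11.1 CPM in all libraries, highest in knockout SNI replicate 19, and 8 of them stayed under 1 CPM in every library. B cell markers summed to 53.9 to 67.8 CPM in injured knockouts and 39.4 to 82.6 in naive knockouts, and to 28.6 to 81.6 CPM in injured controls and 20.1 to 60.4 in naive controls. The part of these cell types in the class II values was not tested.

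**Figure D4:**
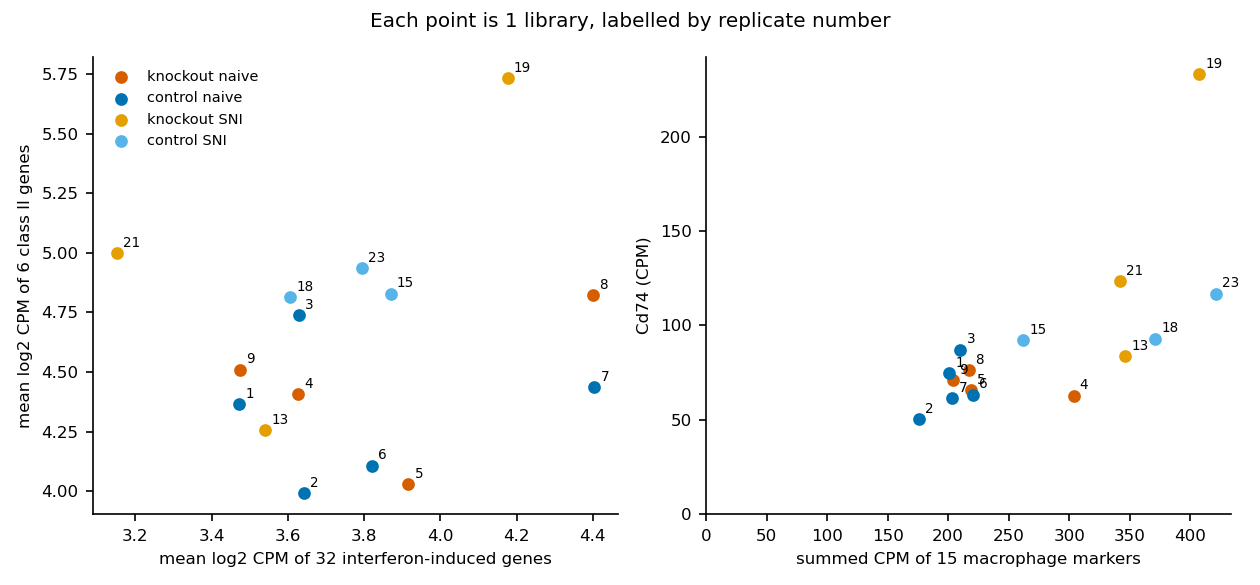
Left, mean log2 CPM of the 6 class II genes against that of the 32 interferon-induced genes in each library; right, Cd74 (CPM) against the summed CPM of 15 macrophage markers. Knockout SNI replicate 19 is at the top of both panels, and knockout naive replicate 8 and control naive replicate 7 lie farthest right in the left panel.

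The interferon-induced genes varied widely between animals of a group, and they varied together. The following genes were picked after their values were seen. Ifit1 had 26.8, 38.0, 72.9 and 22.9 CPM in naive knockouts, against 20.2, 36.9, 27.4, 30.2 and 109 CPM in naive controls. Usp18 had 4.98, 7.14, 14.4 and 3.92 CPM in naive knockouts, against 3.35, 4.82, 4.39, 6.47 and 16.8 CPM in naive controls. In both genes 1 animal of each genotype, knockout replicate 8 and control replicate 7, was well above the others. Of the 32 interferon-induced genes, 27 were highest in knockout replicate 8 among naive knockouts and 31 were highest in control replicate 7 among naive controls. Among injured knockouts 31 of 32 were highest in replicate 19 and 26 were lowest in replicate 21. Injured controls had no such animal, with 15 genes highest in replicate 15 and 15 in replicate 23.

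The mean log2 CPM of the 32 genes showed the same spread. It was 3.63, 3.92, 4.40 and 3.47 in naive knockouts, against 3.47, 3.64, 3.63, 3.82 and 4.40 in naive controls. It was 3.54, 4.18 and 3.15 in injured knockouts, against 3.87, 3.61 and 3.79 in injured controls. The 6 class II genes ordered the animals in part differently. Their mean log2 CPM was also highest of its group in knockout naive replicate 8, at 4.82, and in knockout SNI replicate 19, at 5.73. Control naive replicate 7, however, had 4.44, below the 4.74 of replicate 3. Knockout SNI replicate 21, lowest for the interferon-induced genes, had 5.00 in class II, above the 4.26 of replicate 13.

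Likeness between genes was measured as the Pearson correlation of log2 CPM less the group mean over the 15 libraries, as a description, since the genes share library and depth. The median over pairs of genes was 0.69 within the regulators, 0.75 within the sensors, 0.66 within the effectors and 0.73 within the processing genes. Between regulators and sensors it was 0.72 and between regulators and effectors 0.68. It was lower within class II (0.58), between regulators and class II (0.30) and within the 3 class I molecules (0.21, with H2-K1 and H2-D1 at 0.96). Outside the list, the genes most like the mean of the regulators were the ubiquitin ligase gene Herc6 and Parp12 (r = 0.92 for each) and Trim34a (0.90). For the effectors Herc6 (0.93), the RNA helicase gene Ddx20 and Parp12 (0.90 for each) came first. Among the nearest to the processing genes were the GTPase gene Irgm2 (0.97) and the chemokine gene Cxcl10 (0.89). For both the class I molecules and class II the nearest was the nonclassical class I gene H2-T22 (0.92 for each).

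H2-D1, singled out after its values were seen, fell into separate ranges of level that cut across the groups. It had 96.9, 42.0, 125 and 110.4 CPM in naive knockouts, against 35.2, 34.8, 96.6, 35.1 and 89.6 CPM in naive controls. It had 36.1, 168 and 123 CPM in injured knockouts, against 103, 103 and 58.3 CPM in injured controls. The fold change between genotypes was not called in naive animals (log2 0.68, SE 0.485, adjusted p = 0.698), where 1 of 4 knockouts and 3 of 5 controls were in the lower range. Nor was it called after SNI (log2 0.30, SE 0.59, adjusted p = 0.794), where 1 of 3 animals of each genotype was.

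The split was shared by neighbours of H2-D1 (chr17:35262730-35267499) in the histocompatibility region. The class Ib gene H2-Q7 had 0 counts in the 6 libraries where H2-D1 lay at 34.8 to 58.3 CPM, which allows up to 0.273 to 0.647 CPM there. It had 10 to 56 counts in the 9 libraries where H2-D1 lay at 89.6 to 168 CPM. The nearby H2-Q6 had 0 or 1 counts in those 6 libraries, and the peptide editor gene H2-DMb1 had 1.49 to 3.67 CPM there. Of 152 tested genes within 2 Mb of H2-D1, 9 (5.92%) had a correlation with it above 0.8, against 1 of 656 on the rest of chromosome 17 (0.152%) and 16 of 15962 on other chromosomes (0.1%). The closest were H2-Q7 (0.99), H2-DMb1 (0.97), H2-K1 (0.96), H2-Q6 (0.95) and the ribosomal protein gene Rps18 (0.94). The class II chains lay at 0.93 (H2-Ab1), 0.87 (H2-Eb1) and 0.79 (H2-Aa). Tapbp, also in the region, lay at 55.03 to 90.6 CPM with no such split. Of the genes named, the class I genes H2-D1, H2-K1, H2-Q6 and H2-Q7 are close relatives, so reads may be split among these. The background is labelled as mixed, haplotypes are not given in the labels, and their part in these levels was not tested.

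**Figure D5:**
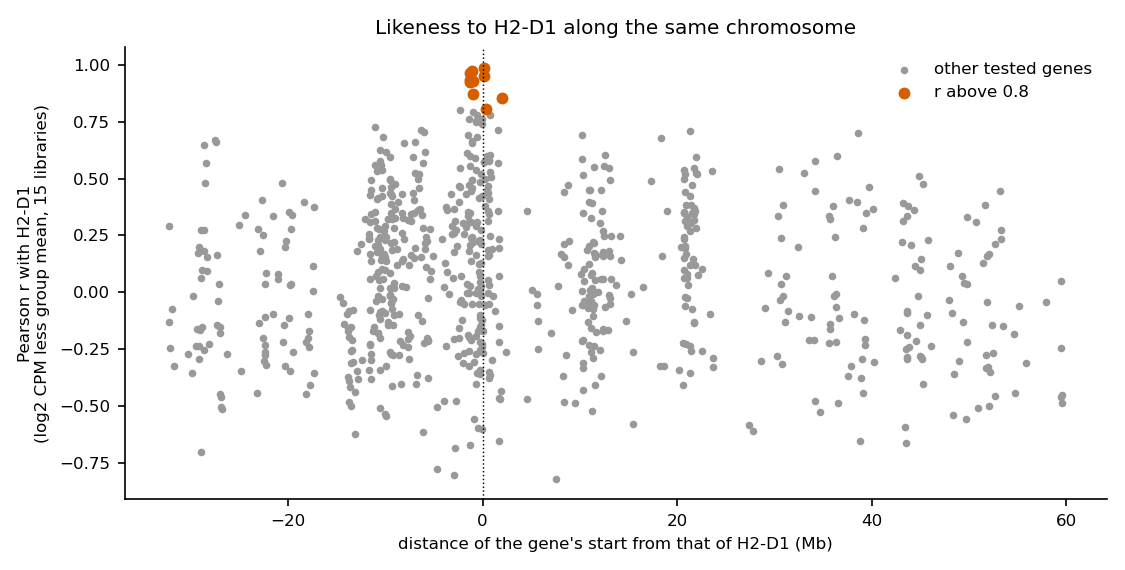
Pearson correlation with H2-D1 (log2 CPM less the group mean, 15 libraries) of each tested gene on the same chromosome, against the distance of its start from that of H2-D1 in Mb. The orange points, with a correlation above 0.8, gather within 2 Mb of H2-D1 except for 1 just beyond that distance.

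The rest of the pathway gave few calls. Of 169 other tested genes of interferon signalling, sensing, response and antigen presentation, none was called by edgeR for knockout against control in naive animals, where 1.89% of all genes were. At an unadjusted p under 0.05 there were 10 (5.92%, against 11.7% of all genes). DESeq2 called 1 and limma-voom 0 (2 with quality weights). After SNI, Ly6a, a surface antigen gene, was called (0.592%, against 1.04% of all genes), lower in knockouts, at 8.97, 16.3 and 12.3 CPM, against 18.7, 31.5 and 39.9 CPM in controls (log2 -1.23, SE 0.265, adjusted p = 0.0361). It was not called by limma-voom, and the call was lost in 10 of 15 omissions of 1 library, with the log2 fold change at -1.49 to -0.98 and an adjusted p as high as 0.141 (knockout SNI replicate 21 left out). For injury in knockouts 6 rose and 2 fell (4.73%, against 10.1% of all genes), and for injury in controls 4 rose (2.37%, against 2.48%).

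Slfn9, a Schlafen family gene, had the smallest p for injury in both genotypes. It had 8.85, 16.3 and 11.2 CPM in injured knockouts, against 1.93, 1.49, 2.09 and 1.18 CPM in naive knockouts (log2 2.84, SE 0.295, adjusted p = 1.13e-05). It had 8.55, 12.1 and 6.47 CPM in injured controls, against 1.77, 0.689, 1.87, 1.18 and 1.94 CPM in naive controls (log2 2.60, SE 0.285, adjusted p = 3.55e-05). In both genotypes every injured library lay above every naive one. In knockouts Ly6e, an antigen gene of the same family as Ly6a, rose by 0.99 on the log2 scale (adjusted p = 0.0024), the Toll adaptor gene Ticam1 by 0.80 (adjusted p = 0.00288) and Socs3, an inhibitor of Jak signalling, by 0.98 (adjusted p = 0.007). In controls Ly6a rose by 1.39 (adjusted p = 0.0022), the cathepsin gene Ctss, which trims the invariant chain, by 1.57 (adjusted p = 0.00946) and Ly6e by 0.69 (adjusted p = 0.0446). The call of Socs3 was lost without knockout SNI replicate 19 (log2 0.75, adjusted p = 0.0683). That of Ly6e in controls was lost in 11 of 15 omissions (log2 0.51 to 0.90, adjusted p as high as 0.137, control SNI replicate 18 left out). Slfn9 kept its call in all 15 omissions in both genotypes. Of the 169 genes none was called by edgeR, DESeq2 or limma-voom for the difference of the injury effects, and 16 had an unadjusted p under 0.05 in edgeR (9.47%, against 13.4% of all genes).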

How the data were processed

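The authors deposited 1 table of raw read counts per gene, whole numbers for 39179 identifiers in 15 libraries, and no column was left unused. Per the labels' protocols, RNA came from a Trizol extraction and libraries from a strand-keeping mRNA kit. Per the submitters' processing notes, the tools were HTSeq 0.6.1, TopHat2 2.0.4, DESeq2, Cufflinks and SAMtools, on GRCm38; annotation release, counting strand and treatment of multiply matching reads are not stated there. GENCODE M21 gave a symbol to 37607 identifiers.

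Of 27310 genes with a count, 16976 were tested (edgeR 4.0.16, filterByExpr with a minimum count of 10), and those left out held 0.131% of the counts. A model with 4 group means was fitted to all 15 libraries (TMM factors, robust quasi-likelihood F test, two-sided, 11 residual degrees of freedom), with adjustment over all tested genes. The common biological coefficient of variation was 15.3%. Levels are TMM-scaled CPM, and log2 CPM used a prior count of 2. Animals are the replicates.

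Values in every library are given for called genes and, in each class, for the most abundant gene and the one with the smallest p; up to 4 other pathway genes are named in each comparison. The genes, lists, tests and alternatives were chosen with earlier results of these data known. Alternatives were other scalings, count filters, DESeq2 1.42.0, limma-voom (limma 3.58.1), the compared groups alone, no wild-type controls, and leaving out each library (R 4.3.3, Python 3.11.15). Residual correlations, promoter motifs and seed sites carry no test. The values of 1 other gene of the pathway are not reported here.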

Additional observations from a re-analysis of the deposited data

Results flagged for a closer look

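In 14 of 94 sets of naive libraries (47 genes in each of 2 groups), the highest library lay far from the others by Dixon's 95% limit; chance alone gives about 1 in 20, and genes of the set vary together, so these are not 14 separate events. In knockout naive replicate 8 these were Irf1 at 30.8 CPM, Bst2 at 33.9, Gbp2 at 41.1, Tap1 at 19.2 and Tap2 at 35.9 CPM. In control naive replicate 7, the wild-type naive animal, they were Usp18 at 16.8 CPM, Xaf1 at 24.3, Ddx58 at 60.4, Ifit1 at 109, Ifit2 at 75.0, Ifit3 at 50, Ifi44 at 7.48, Gbp7 at 32.9 and Rtp4 at 12.7 CPM. The injured groups have 3 animals each and were not examined in this way.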

How the results depend on the processing

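Under RLE and upper quartile scaling, the filter of 10 counts in 3 libraries and no filter, the 47 genes gave the same number of calls in every comparison. Calls among the 47 rose to 2 in naive animals (from 1 in the fit reported), Ifi27 beside Ifi35, with limma-voom quality weights and with only the 2 groups compared. For injury in knockouts they rose to 4 (from 2) with quality weights, with Irf9 and Ifi27 beside Cd74 and Ifi35. With only the 2 groups compared, Ifi27 was called there in place of Cd74. Among the 169 other pathway genes, naive calls (0) became 1 with DESeq2, 2 with quality weights, 3 with 2 groups and 2 without wild-type controls. After SNI (1) they became 2 with DESeq2 and 0 with limma-voom, 2 groups or no wild-type controls. For injury in knockouts (8) they became 13 with DESeq2, 35 with quality weights, 5 without a filter, 26 with 2 groups and 31 without wild-type controls, and for injury in controls (4) 1 without wild-type controls. Over all genes, naive calls (321) became 515 with DESeq2, 1027 with quality weights, 1017 with 2 groups and 709 without wild-type controls. After SNI (177) they became 955, 361, 0 and 74 under the same settings. For injury in knockouts (1717) they became 4995 with quality weights, 4438 with 2 groups and 4745 without wild-type controls, and for injury in controls (421) 673, 881, 213 and 259 in the order DESeq2, quality weights, 2 groups and no wild-type controls. The difference of the injury effects (0) became 13 with DESeq2, 3 with quality weights, 1 without a filter and 1 without wild-type controls. The cause of these shifts was not tested.

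Leaving out 1 library gave 0 to 2 calls among the 47 in naive animals, 0 to 3 for knockout against control after SNI (3 without control SNI replicate 15), 1 to 3 for injury in knockouts (1 without knockout SNI replicate 19 or 21 or knockout naive replicate 5, 8 or 9), 0 to 2 for injury in controls and 0 to 1 for the difference of the injury effects (2 and 1 without control SNI replicate 15). For the other pathway genes the ranges were 0 to 2, 0 to 12, 4 to 27, 3 to 9 and 0 to 3, and over all genes 151 to 708, 57 to 3558, 587 to 4409, 283 to 1506 and 0 to 1235. Without knockout SNI replicate 19 the 1 call for injury in knockouts was Irf9. The log2 fold change of B2m for injury in controls turned to -0.06 without the wild-type controls, with replicate 15 as the only injured control. No paired analysis was possible because the groups share no replicate numbers.

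With 3 to 5 animals a group the SE of a log2 fold change of the 47 genes between groups ran from 0.0978 (Tapbp) to 0.7 (Ifi44), with a median of 0.323. That of the difference of the injury effects ran up to 0.863 (Ifi44). A difference had to be several SE to be called. Cd74 was called for injury in knockouts at 1.09 (SE 0.262), while H2-Aa was not for injury in controls at 1.08 (SE 0.372). Genes that were not called may thus still differ. Levels under 0.647 CPM in control SNI replicate 23, the shallowest library, cannot be told from 0.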
